A study of Mus musculus with 6 samples.

Results

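The sirtuins and the class I lysine deacylases were followed as mRNA in mouse liver, as 10 genes chosen by symbol, namely Sirt1 to Sirt7, Hdac1, Hdac2 and Hdac3. All 10 were among the 16123 genes of the deposited table. The 3 exercise libraries came from livers of mice that covered 22 km each by running over 6 weeks, taken 24 h after the last session. The 3 sedentary libraries came from mice without treadmill training. The mice are described as healthy adults, and the sources used here give no strain, sex or exact age. All the livers were perfused with buffered saline in the body before they were frozen. The study asked how moderate exercise acts on liver metabolism and on protein lactylation.

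Acyl groups on lysine residues, among them acetyl, lactyl and succinyl groups, are removed by 2 unrelated families of enzymes. The sirtuins consume NAD with each acyl group they remove, whereas the class I histone deacetylases (HDACs) use a bound zinc ion and work as the catalytic subunits of large corepressor complexes. In liver, the mitochondrial sirtuins are best known for acting on enzymes of fatty acid oxidation, ketone body synthesis and the urea cycle, and HDAC3 for restraining lipid synthesis genes. Class I HDACs and several sirtuins have been described as enzymes that can take lactyl groups off lysine.

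Of the 10 genes, Sirt3 rose and Sirt5 fell after exercise, and the other 8 did not pass the test. Both of these encode mitochondrial enzymes. All 10 had a mean of at least 1 FPKM (fragments scaled to transcript length and library size, a level per length) over the 6 libraries and were tested. The test was edgeR's quasi-likelihood F test on TMM-scaled counts over 10266 genes, with p-values adjusted by Benjamini-Hochberg over all of them and a threshold of 0.05. Across those genes 38.1% passed, 19.1% higher and 19% lower in exercise, so that 2 of 10 deacylase genes is a smaller share than that of all tested genes. Without TMM scaling the split over all tested genes went from 1961 higher and 1952 lower to 3536 higher and 1203 lower. Leaving the 20 most abundant genes out of the library totals gave 2583 higher and 1575 lower. As alternative tests, DESeq2 gave 1272 higher and 1240 lower, and limma on log2(FPKM + 1) gave 2868 and 1099.

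The libraries held 17941303 to 18371949 counts each. Libraries of 1 group differed by little more than counting noise, with a mean chi-square per gene of 1.13 to 1.21 within groups and 4.71 to 4.94 between groups, where counting noise alone gives 1. Nothing in the labels says whether the libraries of a group were prepared from separate animals, although the design text names 3 mice per group, so the p-values measure only the spread between these libraries. Hepatocyte markers summed to 74970 to 76370 FPKM in sedentary and 76280 to 76830 FPKM in exercise libraries, which matches the labelled tissue. Markers of other cell types had lower sums, which do not measure cell numbers, and some of these sums moved with the groups. Kupffer cell and macrophage markers summed to 278 to 283 FPKM in sedentary and 234 to 238 FPKM in exercise libraries, with 8 of 10 lower. Stellate cell markers summed to 76.2 to 78.6 and 97.5 to 97.9 FPKM, and 4 of the 7 tested were higher and 1 lower. Endothelial markers summed to 82.1 to 83.6 and 91.2 to 97.7 FPKM, with 3 of 8 higher and none lower. Cholangiocyte markers summed to 63.0 to 65.6 FPKM in sedentary and 32.7 to 34.6 FPKM in exercise libraries, with 1 of the 2 tested lower. Neutrophil markers summed to 20.2 to 27.1 and 9.55 to 12.6 FPKM, with 1 of the 3 tested lower. Pancreatic acinar markers summed to 18.5 to 19.8 and 8.17 to 8.68 FPKM, with both of the 2 tested lower. These 3 sums rest on few genes, since 4 of 6 cholangiocyte, 5 of 8 neutrophil and 9 of 11 acinar markers had a mean below 1 FPKM. Erythroid markers summed to 381 to 393 and 335 to 352 FPKM. Lymphocyte markers summed to at most 5.88 FPKM and skeletal muscle markers to at most 1.61 FPKM in any library. In bulk tissue, fewer cells of a type and less RNA per cell cannot be told apart, and the part of these other cells in the values below was not tested.

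The 10 genes spanned a wide range of levels. In sedentary livers their mean FPKM fell in the order Sirt3, Sirt2, Sirt7, Hdac3, Hdac1, Hdac2, Sirt5, Sirt4, Sirt1 and Sirt6, from 54.7 for Sirt3 to 1.72 for Sirt6. Among the 3 sedentary libraries no neighbours in this order overlapped. The order was the same in exercise livers, but there Hdac1 overlapped with Hdac2 and Sirt5 overlapped with Sirt4. Sirt3 stood above 92.3% of all listed genes by its sedentary mean, and Sirt1, the best studied of the family, above 51.1%.

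**Figure D1:**
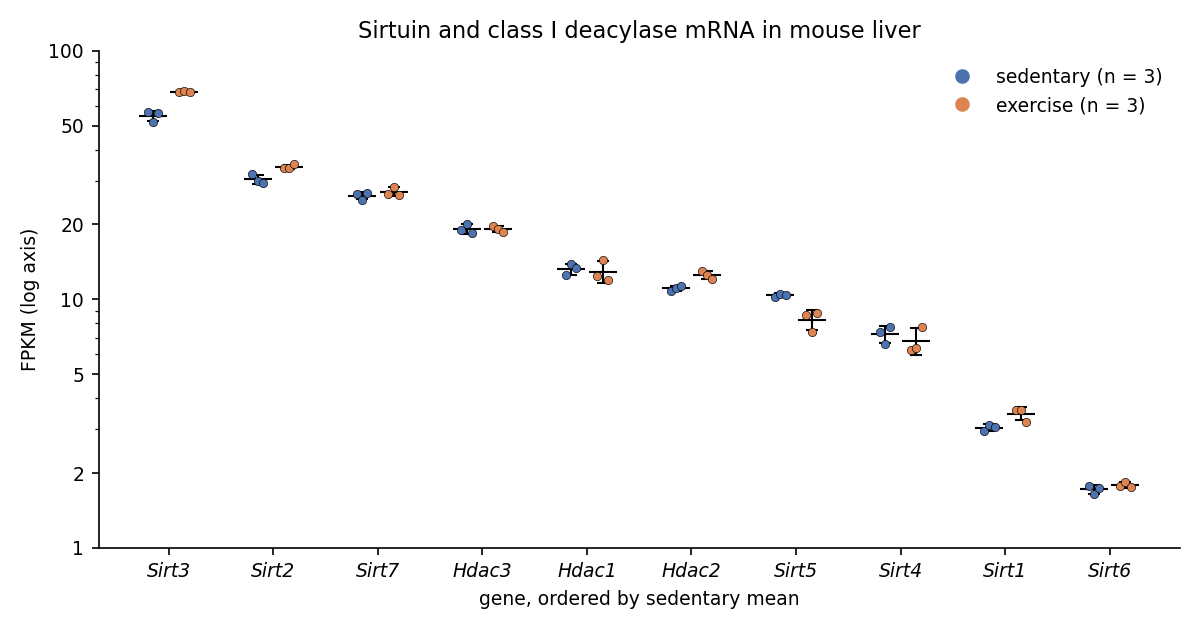
FPKM (log axis) of the 10 deacylase genes in each library, with sedentary livers in blue and exercise livers in orange. Points are libraries, and horizontal bars and error bars are the mean and SD of 3 libraries. Sirt3 is the highest gene in both groups, and its exercise libraries, at 68.3 to 68.6 FPKM, lie above all sedentary libraries, while those of Sirt5 lie below.

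Sirt3, the main deacetylase of the mitochondrial matrix (gene ID 64384, chromosome 7, 140863663 to 140882309 in GRCm38.p6, minus strand), had 56.5, 51.6 and 56.0 FPKM in the sedentary libraries and 68.3, 68.6 and 68.5 FPKM in the exercise libraries. Every exercise library was above every sedentary one. The group means were 54.7 ± 2.70 and 68.5 ± 0.146 FPKM (SD, n = 3). By TMM-scaled counts Sirt3 rose 1.19-fold, with a 95% interval of 1.13-fold to 1.26-fold (log2 fold change 0.25, SE 0.04, edgeR adjusted p = 6.56e-07). It passed in each of 16 alternatives that used the replicates, at log2 fold changes of 0.21 to 0.33. The ratio of the FPKM means was larger, at 1.252, and the deposited FPKM carry no TMM scaling. The 3 exercise counts of Sirt3, 1364, 1361 and 1376, spread with an SD of 7.94, where counting noise of that size gives about 37.0. The sedentary counts of 1148, 1035 and 1129 spread with an SD of 60.5 against about 33.2.

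Sirt5, which removes succinyl, malonyl and glutaryl groups from mitochondrial proteins (gene ID 68346, chromosome 13, 43365389 to 43395203, plus strand), moved the other way. It had 10.2, 10.5 and 10.4 FPKM in the sedentary libraries and 8.63, 7.41 and 8.78 FPKM in the exercise libraries. The groups did not overlap, and the second exercise library was the lowest of the 6. Means were 10.4 ± 0.176 and 8.27 ± 0.751 FPKM (SD, n = 3). Sirt5 fell 1.33-fold by TMM-scaled counts (log2 fold change −0.41, SE 0.09, 95% interval −0.58 to −0.23, edgeR adjusted p = 0.000156). Without exercise replicate 2, its lowest library, and in each of the other 15 alternatives with replicates it also passed, at log2 fold changes of −0.45 to −0.30. In absolute log2 fold change Sirt5 exceeded 91.6% of the tested genes and Sirt3 exceeded 78.5%. The sedentary counts of 223, 226 and 223 differed by far less than the counting noise of about 14.97.

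Sirt4, the third mitochondrial sirtuin, whose product acts on glutamate dehydrogenase and the pyruvate dehydrogenase complex, had 7.36, 6.62 and 7.74 FPKM in sedentary and 6.28, 6.36 and 7.77 FPKM in exercise livers. The highest value and the 2 lowest all came from exercise livers, so the groups overlapped. Its log2 fold change was −0.10 (95% interval −0.30 to 0.10, edgeR adjusted p = 0.454). Sirt4 was the only one of the 10 whose transcript length implied by count and FPKM differed between groups by more than 1% relative to the median gene (4.67% longer in exercise). Over 6059 genes with enough reads this length stayed within 2% for 92.8%.

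Sirt3 and Sirt5 were also set against each other within each library. The ratio of Sirt3 to Sirt5 FPKM was 5.55, 4.89 and 5.38 in the sedentary libraries and 7.92, 9.26 and 7.80 in the exercise libraries. Sirt3 alone made up 40.9 ± 0.713% of the summed sirtuin FPKM in sedentary livers and 45.6 ± 0.299% in exercise livers (SD, n = 3). The share of Sirt5 went from 7.78 ± 0.387% to 5.51 ± 0.494%, and that of Sirt4 from 5.42 ± 0.295% to 4.53 ± 0.525%. These shares were described after the single genes had been seen and were given no test.

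**Figure D2:**
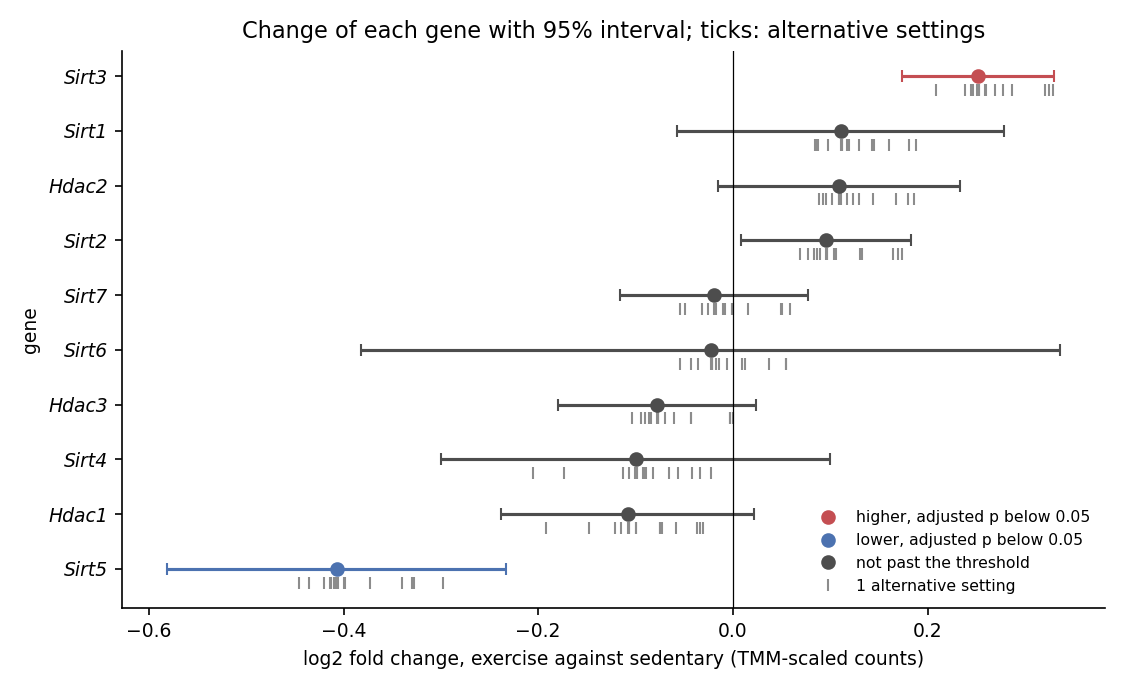
Log2 fold change of each gene in exercise against sedentary livers by TMM-scaled counts, with its 95% interval. Grey ticks are 15 or 16 alternative settings per gene, of which the limma ones are on the log2(FPKM + pseudocount) scale. Only the intervals of Sirt3, Sirt2 and Sirt5 leave out 0, and Sirt2 did not pass after adjustment.

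The 4 sirtuins outside mitochondria did not pass by edgeR or by DESeq2, and 1 of them, Sirt2, had an unadjusted p under 0.05 by edgeR and passed with limma on log2(FPKM + 1). Sirt2, a mainly cytosolic deacetylase that acts on tubulin, had 31.9, 30.0 and 29.3 FPKM in sedentary and 33.9, 33.7 and 34.96 FPKM in exercise livers. The exercise libraries were all higher. The gap was small by TMM-scaled counts, with a log2 fold change of 0.10 (SE 0.04, 95% interval 0.01 to 0.18, edgeR adjusted p = 0.0766). Whether Sirt2 passed depended on the scaling, since it did without TMM (log2 fold change 0.17, adjusted p = 0.000914) and when library totals left out the 20 most abundant genes (0.13, adjusted p = 0.0133). It also passed without sedentary replicate 1 (0.13, adjusted p = 0.027), its highest sedentary library.

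Sirt1, the nuclear deacetylase of many metabolic transcription factors, had 2.94, 3.13 and 3.07 FPKM in sedentary and 3.6, 3.59 and 3.22 FPKM in exercise livers. The groups did not overlap here either, yet the log2 fold change of 0.11 had a 95% interval of −0.06 to 0.28 (edgeR adjusted p = 0.309), and Sirt1 passed in none of 15 alternatives (adjusted p from 0.0608 to 0.535). Sirt6, which acts on chromatin, was the lowest of the 10 at 1.78, 1.64 and 1.74 FPKM in sedentary and 1.77, 1.84 and 1.76 FPKM in exercise livers. With 40 to 44 counts per library its interval ran from 0.768-fold to 1.26-fold, so that a change as large as that of Sirt3 was not detectable at this depth. Sirt7, the nucleolar sirtuin, had 26.5, 25.1 and 26.8 FPKM in sedentary and 26.6, 28.4 and 26.3 FPKM in exercise livers. The values of both groups were mixed, and the interval of Sirt7 was 0.923-fold to 1.06-fold, which leaves out the change of Sirt3.

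None of the class I HDAC genes passed by edgeR, none had an unadjusted p under 0.05 and none passed by DESeq2, while Hdac2 passed with limma on log2(FPKM + 1). Hdac1 had 12.5, 13.8 and 13.4 FPKM in sedentary and 12.4, 14.4 and 12.0 FPKM in exercise livers. Exercise replicate 2 was the highest of all 6 and the other exercise libraries were the lowest. The log2 fold change of Hdac1 was −0.11 (95% interval −0.24 to 0.02, adjusted p = 0.189), and without exercise replicate 2 it was −0.19 and passed (edgeR adjusted p = 0.0258). Hdac2, its close paralogue in the same complexes, had 10.8, 11.1 and 11.3 FPKM in sedentary and 13.01, 12.6 and 12.1 FPKM in exercise livers. All exercise libraries were higher. Its log2 fold change was 0.11 (95% interval −0.02 to 0.23, edgeR adjusted p = 0.164), and it was 0.19 without TMM, where Hdac2 passed (adjusted p = 0.0118). Hdac3, the catalytic subunit of nuclear receptor corepressor complexes, had 19.0, 20.2 and 18.5 FPKM in sedentary and 19.7, 19.2 and 18.6 FPKM in exercise livers. The groups overlapped fully, and the 95% interval of Hdac3 was 0.883-fold to 1.02-fold (edgeR adjusted p = 0.229).

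In FPKM, 5 of the 10 genes showed no overlap between groups, namely Sirt1, Sirt2, Sirt3, Sirt5 and Hdac2. Over all tested genes this held for 51%, so the count of 5 does not stand apart. The summed FPKM of the 7 sirtuins was 134 ± 4.43 in sedentary and 150 ± 1.12 in exercise livers (SD, n = 3), and the mean of Sirt3 within it was 54.7 and 68.5. The sum of the 3 HDAC genes was 43.5 ± 1.45 and 44.7 ± 1.75 FPKM. Neither sum carries TMM scaling. Over all tested genes the median log2 fold change was 0.077 without TMM and −0.0006 with it.

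Hdac1 and Hdac2 were also compared as a ratio within each library, which does not depend on scaling. Sedentary livers had 1.154, 1.24 and 1.19 times as much Hdac1 as Hdac2 by FPKM, and exercise livers 0.953, 1.147 and 0.988 times as much. The groups came close but did not overlap, with exercise replicate 2 next to sedentary replicate 1. The mean ratio went from 1.19 ± 0.0452 to 1.03 ± 0.103 (SD, n = 3), a difference of −0.22 on the log2 scale (exact permutation test, two-sided, p = 0.1, the smallest that the 10 splits of 6 libraries allow). The difference was −0.30 without exercise replicate 2 and −0.16 without exercise replicate 1.

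**Figure D3:**
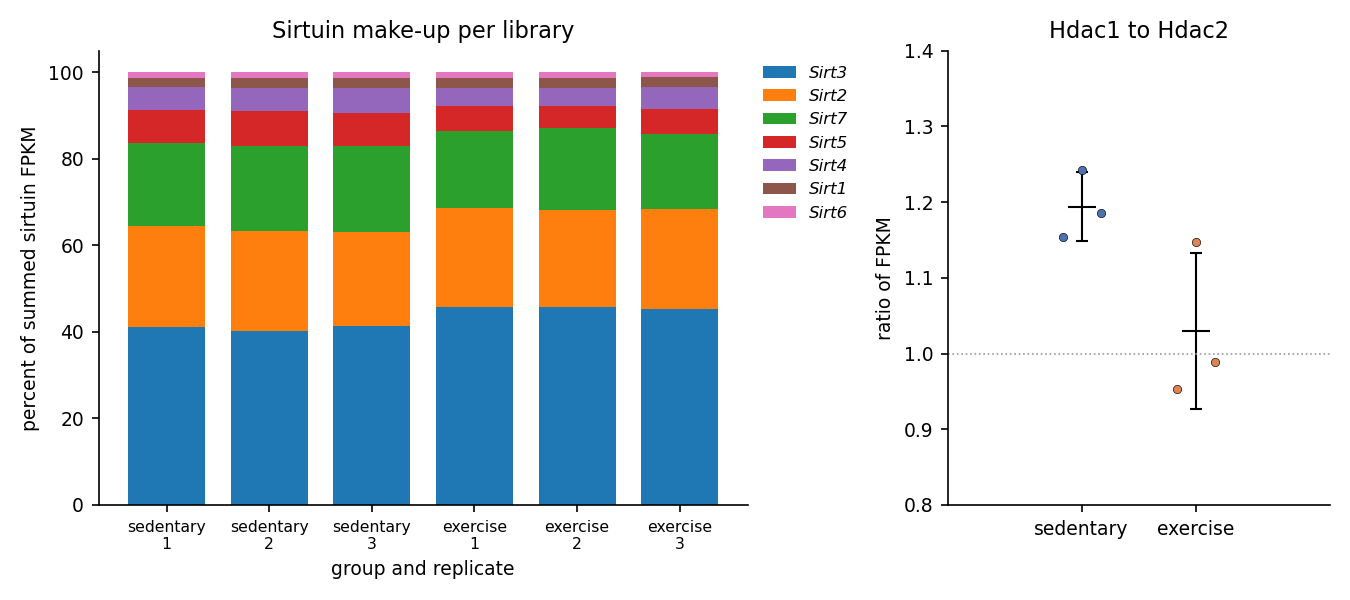
Left, the share of each sirtuin in the summed sirtuin FPKM of each library, in percent. Right, the ratio of Hdac1 to Hdac2 FPKM in each library with mean and SD of 3 libraries (axis from 0.8 to 1.4, dotted line at 1). The Sirt3 share lies at 40.1% to 41.4% in sedentary and 45.3% to 45.8% in exercise libraries.

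Several of these genes start next to another gene on the opposite strand. The neighbour of Sirt3, Psmd13, also passed the test, in the other direction. In RefSeq the starts of Sirt3 and Psmd13, a subunit of the proteasome lid, lie 85 bases apart and point away from each other. The 84 bases between them (GRCm38.p6, chr7:140882310-140882393, plus strand) and 250 bases at the start of Sirt5 (chr13:43365285-43365534, plus strand) are shown because Sirt3 and Sirt5 passed. The Sirt5 stretch precedes the transcript start that RefSeq's promoter table gives, 43365535. The Sirt5 gene record begins earlier, at 43365389, so the second part of the stretch lies within the gene as recorded. They are RefSeq sequences, and capitals mark the motifs named after them.
Sirt3-Psmd13 interval: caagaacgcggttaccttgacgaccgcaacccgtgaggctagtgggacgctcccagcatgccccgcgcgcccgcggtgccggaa
Sirt5 upstream: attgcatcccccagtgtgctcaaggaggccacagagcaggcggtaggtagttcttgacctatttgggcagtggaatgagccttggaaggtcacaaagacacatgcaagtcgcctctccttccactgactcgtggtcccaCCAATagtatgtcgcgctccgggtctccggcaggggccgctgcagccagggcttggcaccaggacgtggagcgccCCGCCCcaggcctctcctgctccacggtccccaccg

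The interval between Sirt3 and Psmd13 was 69.1% G and C and held 12 CpG dinucleotides. RefSeq windows of 300 bases, 250 before and 50 after each start, were then looked up. Windows on chromosome 18, where Hdac3 lies, were left out, and Hdac1 had none among the rest. The other 8 of the 10 genes had an entry. Their G and C content ran from 50.0% for Sirt2 to 79.0% for Sirt1, against a median of 52.7% over 32851 windows. These windows were searched on both strands for 6 motifs, namely the palindromic NRF1 site, the estrogen-related receptor site (TNAAGGTCA), the cyclic AMP response element (TGACGTCA), the E-box (CACGTG), the CCAAT box (spelled as named) and the GC box (GGGCGG). They occur in 0.971%, 1.28%, 1.79%, 7.15%, 37.4% and 35.7% of all windows. The window at the start of Sirt3 facing Psmd13 and that of Psmd13 held none of them. A window at another annotated Sirt3 start, at 140881869, held 1 CCAAT and 4 GC boxes. The Sirt5 window held 1 CCAAT and 1 GC box. Among the other genes, the Sirt1 window held 2 E-boxes and 7 GC boxes, and 1 of the 2 Sirt6 windows held 1 NRF1 site and the other 1 GC box. The Sirt2 window held 2 CCAAT and 1 GC box, those of Sirt7 and Hdac2 1 GC box each, and that of Sirt4 none of the 6. A match or its absence describes these letters only.

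Psmd13 had 47.7, 48.0 and 48.3 FPKM in the sedentary libraries and 47.2, 45.9 and 43.0 FPKM in the exercise libraries. All exercise libraries were lower, although the first came within 1 FPKM of the sedentary ones. Psmd13 fell 1.11-fold by TMM-scaled counts (log2 fold change −0.16, SE 0.04, edgeR adjusted p = 0.00163). It missed the threshold without TMM, at a log2 fold change of −0.08 (adjusted p = 0.113), and in limma on log2(FPKM + 1) (adjusted p = 0.112). The ratio of Sirt3 to Psmd13 FPKM, which no scaling changes, was 1.19, 1.07 and 1.16 in sedentary and 1.45, 1.49 and 1.59 in exercise livers. GENCODE M21 puts the start of Psmd13 further back, at 140881968, where it overlaps Sirt3 by 342 bases. Ric8a, on the opposite strand at the far end of Sirt3, overlaps it by 69 bases in RefSeq and did not pass (log2 fold change −0.10, adjusted p = 0.198). Whether the counting used strand is not given in the sources used here, and the part of reads from such overlaps was not tested.

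In the other pairs no tested neighbour passed. Sirt2 and Nfkbib, an inhibitor of NF-kappaB, start 108 bases apart, and Nfkbib was at 14.5 ± 0.833 and 14.2 ± 1.45 FPKM (SD, n = 3; edgeR adjusted p = 0.322). Sirt6 and Ankrd24 start 29 bases apart, and both were low, with Ankrd24 at 1.14 ± 0.115 and 1.147 ± 0.135 FPKM (edgeR adjusted p = 0.82). Hdac3 and Rell2 start 39 bases apart, and Rell2 was too low to be tested, at 0.03 to 0.23 FPKM.

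**Figure D4:**
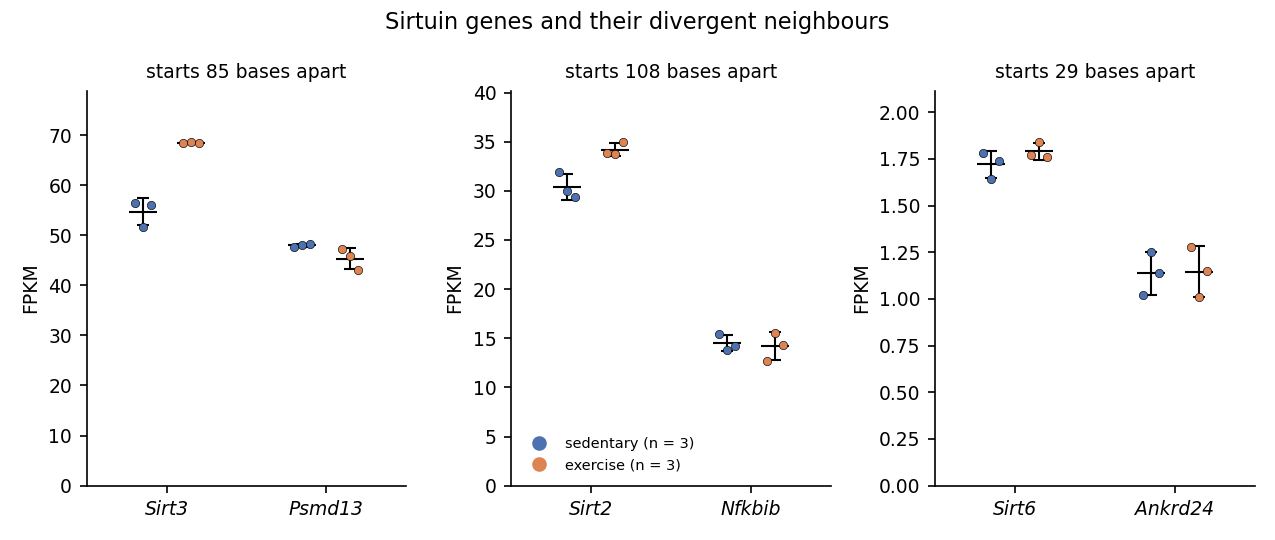
FPKM of 3 sirtuin genes and of the genes that start beside them on the opposite strand, in each library, with mean and SD of 3 libraries (sedentary blue, exercise orange, axes from 0). Sirt3 is higher in all exercise libraries, at 68.3 FPKM or more, while Psmd13 is lower, at 47.2 FPKM or less.

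Of the other zinc-dependent deacylase genes, 7 of 8 were tested and 1, Hdac5, passed as lower (14.3%, against 19% of all tested genes). Hdac5, a class IIa enzyme, went from 12.3 ± 0.601 to 12.0 ± 0.552 FPKM (SD, n = 3), with a log2 fold change of −0.12 (edgeR adjusted p = 0.04). The call ended when sedentary replicate 1, sedentary replicate 2 or exercise replicate 2 was left out (edgeR adjusted p = 0.184, 0.115 and 0.237), and by DESeq2 (adjusted p = 0.18). It also ended by edgeR without TMM (log2 fold change −0.04, adjusted p = 0.5) and without the expression filter (adjusted p = 0.101). The same held for edgeR with totals leaving out the 20 most abundant genes (adjusted p = 0.151) and limma on log2(FPKM + 1) (adjusted p = 0.602). None rose by edgeR with TMM, at adjusted or unadjusted p, or by DESeq2. Hdac11 passed as higher by edgeR without TMM (log2 fold change 0.15, adjusted p = 0.00491), and limma, on FPKM without TMM, called Hdac7 and Hdac11 higher. With TMM the log2 fold changes were 0.16 for Hdac7, 0.07 for Hdac11 and −0.21 for Hdac10 (adjusted p = 0.262, 0.22 and 0.063). Hdac8, the remaining class I gene, had 202.6 and 208.6 mean counts and a log2 fold change of −0.01 (edgeR adjusted p = 0.931). Its FPKM went from 3.16 ± 0.494 to 2.69 ± 0.534 (SD, n = 3), the implied transcript length being 22.0% longer in exercise, and its counts were not whole.

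Subunits of the complexes that carry HDAC1, HDAC2 and HDAC3 were called at shares not far from those of all tested genes. Of 34 tested, 10 rose (29.4%, against 19.1% of all tested genes), 5 fell (14.7%, against 19%) and 19 did not pass, with a median log2 fold change of 0.06 beside −0.0006 over all tested genes. Without TMM 17 of the subunits were higher and 1 lower, beside 3536 and 1203 of all 10266 tested genes. By DESeq2 they were 5 and 1, beside 1272 and 1240. With 1 library left out 8 to 9 subunits were higher and 2 to 3 lower. Among those that rose were Chd4 and Mta2, the remodelling ATPase and a scaffold of the NuRD complex, and Suds3, a subunit of the SIN3 complex. Chd4 had means of 21.5 ± 0.554 and 26.4 ± 0.754 FPKM (SD, n = 3) and rose 1.17-fold (edgeR adjusted p = 3.09e-08). Suds3 rose 1.16-fold and Mta2 rose 1.153-fold. Ncor1, a corepressor that binds HDAC3, at 10.6 ± 0.522 and 11.6 ± 0.195 FPKM (SD, n = 3), did not pass (log2 fold change 0.05, edgeR adjusted p = 0.264), but passed without TMM (0.13, adjusted p = 0.00231).

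Genes that make NAD, the cosubstrate of the sirtuins, together with the mitochondrial NAD carrier gene Slc25a51, had a median log2 fold change of −0.13. Of 14 tested, 7 fell (50%, against 19% of all tested genes), 2 rose (14.3%, against 19.1%) and 5 missed the threshold. Across the scaling alternatives 5 to 9 were lower, beside 1203 to 2114 of all 10266 tested genes. By DESeq2 5 were lower and 1 higher, beside 1240 and 1272. Nampt, the rate-limiting enzyme of NAD salvage, had a mean of 11.3 ± 0.601 FPKM in sedentary and 9.90 ± 0.574 FPKM in exercise livers (SD, n = 3) and fell by 0.27 on the log2 scale (edgeR adjusted p = 5.53e-06). Kmo and Ido2, enzymes of the tryptophan route, fell by 0.26 and 0.39 on the log2 scale. Afmid, the formamidase of the same route, rose 1.17-fold. Slc25a51, named because it does not make NAD, was the other that rose (log2 fold change 0.12, edgeR adjusted p = 0.016).

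Other enzymes that draw on NAD, nicotinamide or their precursors had a median log2 fold change of −0.20. Of 16 tested, 9 fell (56.25%, against 19% of all tested genes), 1 rose (6.25%, against 19.1%) and 6 missed the threshold. Without TMM 8 were lower and 4 higher, beside 1203 and 3536 of all 10266 tested genes. When library totals left out the 20 most abundant genes, 8 were lower and 3 higher, beside 1575 and 2583. Nnmt, which methylates nicotinamide and so takes it out of NAD salvage, had the lowest log2 fold change of this list. It went from 140 ± 5.91 to 91.5 ± 2.57 FPKM (SD, n = 3) and fell by 0.68 on the log2 scale (edgeR adjusted p = 6.42e-21). Parp12, Parp10 and Parp14, mono-ADP-ribosyltransferases known to be induced by interferon, fell by 0.51, 0.46 and 0.44. Kupffer cell and macrophage markers were lower in the same libraries, 8 of 10 of them, and their part in these values was not tested. Cd38, another NAD-consuming enzyme, rose (log2 fold change 0.29, edgeR adjusted p = 0.0052); it was named after its value was seen, as the 1 gene of the list called higher with TMM scaling.

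The mRNAs of known protein substrates of the mitochondrial sirtuins moved largely one way. Of 21 tested, 15 rose (71.4%, against 19.1% of all tested genes), 1 fell (4.76%, against 19%) and 5 did not pass. The median log2 fold change was 0.11. With 1 library left out 13 to 14 rose. Across the scaling alternatives 14 to 17 rose, beside 1758 to 3536 of all 10266 tested genes. Acadl, the long-chain acyl-CoA dehydrogenase, had 90.45 ± 1.45 FPKM in sedentary and 112 ± 3.42 FPKM in exercise livers (SD, n = 3), and rose 1.18-fold (edgeR adjusted p = 3.51e-09). The urate oxidase gene Uox rose 1.16-fold and the aldehyde dehydrogenase gene Aldh2 rose 1.09-fold. The 1 that fell was Ppif, the cyclophilin of the permeability transition pore, by 0.35 on the log2 scale; it was named after its value was seen. Of the 8 hepatocyte markers 4 were higher and 3 lower, against 19.1% and 19% of all tested genes. Cps1, named because it stands in both lists, was called higher. The part of hepatocytes in these values was not tested.

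Transcription regulators that SIRT1 deacetylates had a median of −0.04 in log2 fold change. Of 15 tested, 7 fell (46.7%, against 19% of all tested genes), 2 rose (13.3%, against 19.1%) and 6 missed the threshold. That split depended on the scaling and the test, with 3 higher and 3 lower without TMM and in limma, and 2 higher and 3 lower by DESeq2. Over all 10266 tested genes it was 3536 and 1203 without TMM and 1272 and 1240 by DESeq2. In limma on log2(FPKM + 1) it was 2868 and 1099. With 1 library left out 4 to 6 of the 15 regulators were lower. Hnf4a, a hepatocyte identity factor, had 157 ± 2.30 FPKM in sedentary and 199.8 ± 3.40 FPKM in exercise livers (SD, n = 3), and rose 1.21-fold (edgeR adjusted p = 2.55e-15). Foxo1, Srebf2 and Stat3 fell by 0.30, 0.29 and 0.25 on the log2 scale.

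Of the 4 tested regulators of Sirt1, Ccar2, an inhibitor of SIRT1, fell by 0.28 on the log2 scale (edgeR adjusted p = 0.000463), with an adjusted p of 0.0548 by limma on log2(FPKM + 1). Rps19bp1, described as an activator of SIRT1, had a log2 fold change of 0.29 (edgeR adjusted p = 0.0126). It did not pass without sedentary replicate 3 (0.0929) or exercise replicate 3 (0.0833), or by DESeq2 (adjusted p = 0.0884). E2f1, at 1.28 ± 0.0896 and 0.950 ± 0.244 FPKM (SD, n = 3), fell by 0.51 (edgeR adjusted p = 0.0206). Its call ended without sedentary replicate 1 (0.0816), exercise replicate 2 (0.0958) or exercise replicate 3 (0.119). E2f1 also did not pass by DESeq2 (adjusted p = 0.123) or by limma on log2(FPKM + 1) (adjusted p = 0.0777). Usp22 did not pass (log2 fold change 0.02, edgeR adjusted p = 0.781).

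The acyltransferases, among them enzymes that add the groups that the deacylases remove, had a median log2 fold change of 0.0031. Of 15 tested, 4 rose (26.7%, against 19.1% of all tested genes), 1 fell (6.67%, against 19%) and 10 missed the threshold, so the counts do not stand apart. By DESeq2 1 was higher and none lower, beside 1272 and 1240 of all 10266 tested genes. With 1 library left out 2 to 3 acyltransferases were higher. Kat8, an acetyltransferase of histone H4, had 11.2 ± 0.537 FPKM in sedentary and 14.7 ± 0.160 FPKM in exercise livers (SD, n = 3), and rose 1.25-fold (edgeR adjusted p = 0.000222). Crebbp, the paralogue of p300, had 1.95 ± 0.172 and 2.37 ± 0.124 FPKM (SD, n = 3) and a log2 fold change of 0.18 (edgeR adjusted p = 0.0191). Its call ended without sedentary replicate 3 (0.132) or exercise replicate 1 (0.147). Ep300 itself had 3.49, 3.53 and 3.68 FPKM in sedentary and 3.79, 4.51 and 4.19 FPKM in exercise livers, and its edgeR adjusted p of 0.0322 went above the threshold without any of 4 libraries, sedentary replicates 1 (0.0875) and 2 (0.0844) and exercise replicates 2 (0.299) and 3 (0.081). Kat2b rose 1.08-fold (edgeR adjusted p = 0.0149, and 0.0965 without exercise replicate 3), and Kat5 fell by 0.26 on the log2 scale (edgeR adjusted p = 0.0148, 0.0897 without exercise replicate 1 and 0.0538 without exercise replicate 2).

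**Figure D5:**
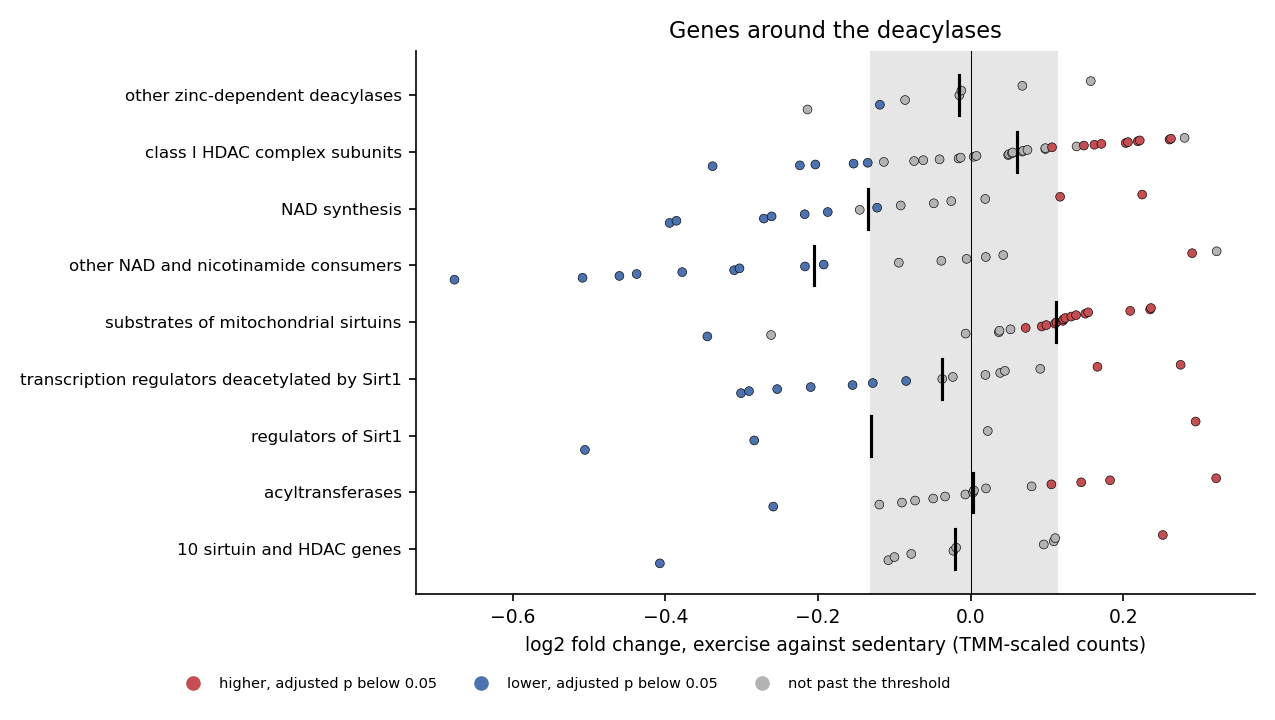
Log2 fold change (TMM-scaled counts) of each tested gene in 8 lists around the deacylases and of the 10 deacylase genes. Red points are higher and blue points lower in exercise at an adjusted p below 0.05, grey points did not pass, black bars are list medians, and the grey band spans the middle of all tested genes (quartiles −0.13 to 0.11). Of the 10 deacylase genes, Sirt3 and Sirt5 lie outside the band.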

How the data were processed

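Liver RNA was measured in 6 libraries, 3 per group. Per the labels, RNA was extracted with TRIzol, read in pairs on a DNBseq instrument and filtered for quality. The submitters' processing notes name GRCm38.p6 as build and, with no versions, featureCounts, cutadapt and MultiQC; for aligner, annotation and strand, nothing is given in the sources used here. Each library had 3 deposited columns, read counts, FPKM and TPM, per the file headers. The deposited counts are estimated counts, since 1165 of 16123 genes had one that was not whole; those of the 10 genes were whole. The authors' FPKM were used as levels, and the deposited TPM, scaled to a fixed library sum, for an alternative ratio. The 6 columns of averages were not used.

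Columns were matched to samples by the labels' descriptions, and groups follow the treatment label. Counts were rounded and fitted with edgeR 4.0.16 in R 4.3.3 (TMM, quasi-likelihood F test, no covariates) where mean FPKM reached 1. TMM factors were 0.972 to 0.977 in sedentary and 1.03 in exercise libraries (1.031, 1.025 and 1.025). Standard errors were derived from F, as the log2 fold change over its square root. Alternatives were other scalings, filters, DESeq2 1.42.0, limma 3.58.1 on log2(FPKM + 1) or log2(FPKM + 0.1), each library left out, and the replicate number as a block. The members and lists were chosen with earlier results of these data known, so lists are described by counts and medians. The genes named were all members, the up to 4 genes of each list with the smallest p, Hdac8, Ncor1, Nampt, Ep300, Crebbp, and genes that overlap a member or start within 1000 bases of it on the other strand; some genes under this rule are not reported here. Genome positions and promoters are RefSeq's in GRCm38.p6; of the listed gene IDs 16076 were found there. Strand came from RefSeq promoters or GENCODE M21. Intervals cover the spread between these libraries at 95%.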

Additional observations from a re-analysis of the deposited data

How the results depend on the processing

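Sirt3 stayed higher and Sirt5 lower, both past the threshold, in each of the 16 alternatives with replicates. The number of the 10 genes called higher was 3 without TMM and in both limma fits (Sirt2 and Hdac2 besides Sirt3). It was 2 when library totals left out the 20 most abundant genes. With 1 library dropped it was between 1 and 2, Sirt2 being added without sedentary replicate 1. Over all 10266 tested genes, 1961 were higher in the main fit. That count was 3536 without TMM, 2868 and 2856 in the limma fits, and 2583 without the 20 most abundant genes. The number of the 10 genes called lower was 1 to 2 with 1 library left out, Hdac1 being added without exercise replicate 2. DESeq2 called 2512 genes in all, against 3913 by edgeR. With 1 summed library per group and an assumed biological variation of 0.1, an alternative chosen after seeing the data, 176 genes passed, 0 of the 10 higher and 0 lower, and none of the 49 tested genes under the naming rule; at 0.2 it was 23 genes, with 0 and 0. The median log2 fold change over all genes was −0.01 to 0.08 across the settings, so no scaling moved it by over 0.1. The log2 difference of the Hdac1 to Hdac2 ratio was −0.22 by TPM and by counts and −0.30 to −0.16 with 1 library left out.

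Same-numbered libraries of the 2 groups did not deviate together (r from −0.03 to −0.02 over the tested genes for the 3 pairs). Libraries of 1 group differed by little more than counting noise, so this check cannot show whether the numbers pair the samples. With the replicate block edgeR called 3846 genes and the same counts of the 10, 1 higher and 1 lower. Counts limit Sirt6 most, at 40 to 44 per library.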
